A study of Mus musculus with 5 samples.

Results

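Collagen genes were taken as every row of the deposited count table whose symbol reads Col, a number, the letter a and a number, with 20 or more transcript counts over all cells. Of 42 such symbols among 21617 genes, 37 met the minimum and are the members described here. The other 5, Col9a2, Col19a1, Col25a1, Col10a1 and Col22a1, had 7 to 18 counts and are given no further values. Just inside the minimum were Col4a6 with 30 counts, Col4a3 with 37 and Col26a1 with 38, while Col3a1, the most abundant member, had 1964191.

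The cells came from mice, and each library was made from single cells with the Chromium Single-cell 3' v3 kit, which tags every captured transcript with a molecular identifier (UMI). The library labelled Control held macrophages elicited with thioglycollate, a sterile irritant injected to recruit them. The remaining 4 came from foreign body granulomas, the tissue that forms around material the body cannot clear, labelled Sponge or Silk and 2 or 4 weeks. The labels give no strain, age, sex or number of animals. Each group is 1 library, so no group has a spread between replicates. A model with additive terms for material and time was not fitted, as only 1 degree of freedom would remain for the residual. Values over the granulomas are given below as 2-week sponge, 4-week sponge, 2-week silk and 4-week silk, in that order.

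Collagens are secreted or membrane-bound proteins with a triple helix of 3 chains. Types I, III and V polymerize into the fibrils of connective tissue and scar, type IV forms the meshwork of basement membranes under endothelium and around pericytes and muscle, and type VI forms beaded filaments near cells. FACIT collagens (types XII, XIV and XVI among them) sit on the surface of fibrils, and the multiplexins XV and XVIII sit at basement membranes. Around an implanted material, fibroblasts lay down fibrillar collagen as a capsule, while the vessels that grow in bring basement membrane.

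Promoters are shown for the 2 most abundant fibrillar members with a window in the RefSeq table and for the pair Col4a1 and Col4a2, whose levels are set side by side below. The windows are 300 bases of the mouse build GRCm38.p6, from 250 bases before to 50 after the annotated start, written 5' to 3' on the gene's own strand. Capitals mark matches on either strand to a CCAAT box (CCAAT or ATTGG), a GC box (GGGCGG or CCGCCC) or a TATA box (TATAAA or TTTATA). Col3a1 is at chr1:45311288-45311587 on the plus strand, Col1a2 at chr6:4505368-4505667 on the plus strand, Col4a1 at chr8:11312777-11313076 on the minus strand and Col4a2 at chr8:11312555-11312854 on the plus strand.
Col3a1: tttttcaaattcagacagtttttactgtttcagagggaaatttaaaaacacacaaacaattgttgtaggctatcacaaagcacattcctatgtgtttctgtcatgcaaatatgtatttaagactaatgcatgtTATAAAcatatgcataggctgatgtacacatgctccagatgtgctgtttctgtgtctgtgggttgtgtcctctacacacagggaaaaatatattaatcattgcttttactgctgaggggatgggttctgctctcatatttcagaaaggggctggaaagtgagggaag
Col1a2: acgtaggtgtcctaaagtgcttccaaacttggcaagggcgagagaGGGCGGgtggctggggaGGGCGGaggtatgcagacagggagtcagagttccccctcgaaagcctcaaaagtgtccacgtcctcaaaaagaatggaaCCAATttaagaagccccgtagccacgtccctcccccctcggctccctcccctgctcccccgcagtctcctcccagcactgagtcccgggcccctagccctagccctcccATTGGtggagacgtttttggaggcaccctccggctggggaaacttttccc
Col4a1: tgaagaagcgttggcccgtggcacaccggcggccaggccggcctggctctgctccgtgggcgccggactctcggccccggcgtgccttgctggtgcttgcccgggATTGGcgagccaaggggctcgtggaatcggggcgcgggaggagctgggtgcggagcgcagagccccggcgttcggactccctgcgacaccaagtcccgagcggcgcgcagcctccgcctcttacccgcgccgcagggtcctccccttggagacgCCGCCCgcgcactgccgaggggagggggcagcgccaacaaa
Col4a2: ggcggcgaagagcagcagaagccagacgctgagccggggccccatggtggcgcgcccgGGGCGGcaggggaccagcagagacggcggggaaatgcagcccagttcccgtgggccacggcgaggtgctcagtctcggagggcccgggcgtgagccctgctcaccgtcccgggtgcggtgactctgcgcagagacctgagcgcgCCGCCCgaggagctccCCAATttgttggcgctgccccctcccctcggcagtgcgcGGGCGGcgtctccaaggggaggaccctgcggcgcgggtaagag
The Col3a1 window held 1 TATA box and had a GC content of 37.7%, while the Col1a2 window held 2 CCAAT boxes and 2 GC boxes at 61.0% GC. Col4a1 and Col4a2 are transcribed away from each other, with annotated start sites 21 bases apart at chromosome 8 positions 11312826 and 11312805. Their windows share 78 bases, and held 1 CCAAT box and 1 GC box in the Col4a1 window and 1 CCAAT box and 3 GC boxes in that of Col4a2. Windows were found for 30 of the 37 members, 32 windows in all. Of these, 11 held a CCAAT box, 21 a GC box and 4 a TATA box, beside 37.4%, 35.7% and 13.6% of all 32851 windows in the table. A match describes the letters only and names no bound factor.

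The granuloma libraries held 12347, 7701, 10231 and 1873 cells and between 11207419 and 96066597 UMIs, and the control library 9039 cells and 80521014 UMIs. Median UMIs per cell ran from 3818 to 7109. Cell classes and subclusters are the authors' deposited names: fibroblasts (subclusters F1 to F4), myocytes, endothelial cells, and leukocytes as monocytes and macrophages (Mo-Mac), NK and T cells, neutrophils and B cells. The class labelled Myocyte carried pericyte markers at 5865 to 10360 CPM (UMIs scaled to 1e6 UMIs of the class) and smooth muscle markers at 1499 to 3520. The skeletal muscle markers Ckm and Myh4 were at 0 in all 4 granuloma libraries. Values of the other skeletal muscle markers listed (Acta1, Tnnt3, Mylpf and Tnnc2) are not given here. The class is called Myocyte here as its label. Its pericyte markers summed higher than its smooth muscle markers, and its endothelial markers, given below, lay within the smooth muscle range. In F4, monocyte-macrophage markers summed to 3934, 5574, 5485 and 12580 CPM against 66.19 to 104.1 in F1, and 142 of 251, 88 of 160, 55 of 117 and 9 of 19 of its cells were among the top 5% of doublet scores. The part of mixed droplets in the F4 values was not tested. Between libraries, 153 cell barcodes were shared.

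Levels below are CPM of a class in 1 library. Each molecule is counted once near its 3' end, so levels were compared between genes without a length correction. Fibroblasts held the highest mean level over the 4 granulomas for 26 of the 37 members, and for 19 of these in each of the 4 libraries. Myocytes were highest for 7 members (Col4a1, Col4a2, Col15a1, Col18a1, Col6a4, Col17a1 and Col9a3), endothelial cells for 3 (Col13a1, Col28a1 and Col4a6) and leukocytes for 1 (Col11a2). Some of these ranks rest on few cells. Without the 1 myocyte and the 1 endothelial cell of most collagen UMIs in each library, a choice made after seeing the data, the Col15a1 mean was 848.4 CPM in myocytes and 903.8 in endothelial cells, so that its order turned. In myocytes Col9a3 had 2, 0, 0 and 1 UMIs and Col17a1 3, 2, 0 and 0. The classes were drawn from expression data that included these genes, so their differences are described without a test. For the numbers of members by highest class, the matching shares over all genes were not computed.

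**Figure D1:**
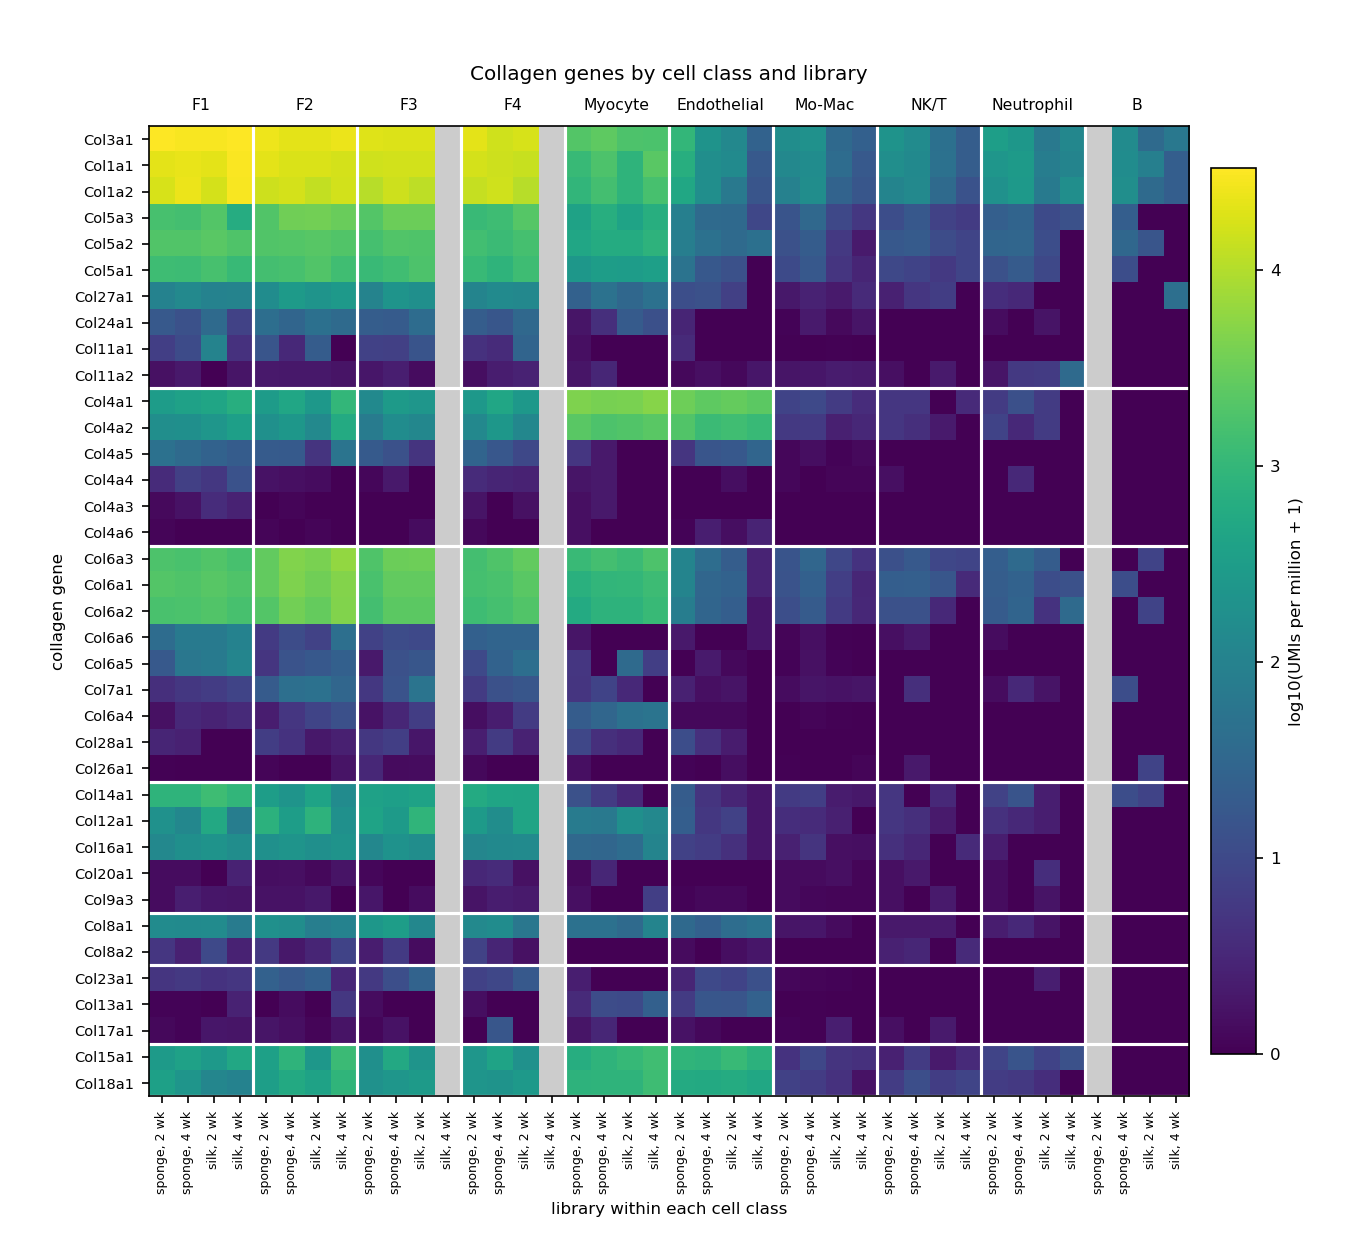
Level of each of the 37 collagen genes (rows, grouped by structure and separated by white lines) in fibroblast subclusters F1 to F4, myocytes, endothelial cells and 4 leukocyte classes (columns, each with 4 granuloma libraries), as log10(CPM + 1). Grey marks classes with fewer than 20 cells in a library, and brighter colours mark higher levels. Col3a1, Col1a1 and Col1a2 are brightest in the fibroblast columns and Col4a1 and Col4a2 in the Myocyte and Endothelial columns.

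The fibrillar collagens made up most of the collagen RNA of fibroblasts. Col3a1, the single chain of type III, reached 28780, 24590, 21430 and 27690 CPM in fibroblasts over the 4 granulomas. Col1a1 and Col1a2, the chains of type I, reached 20300, 20090, 17580 and 23240 and 15670, 20080, 12820 and 22270. For all 3 genes silk at 2 weeks was lowest. In mean level fibroblasts stood 12.6 times above the next class for Col3a1, 13.4 times for Col1a1 and 14.4 times for Col1a2, and that class was the myocytes. The type V chains, which help start and limit fibrils, followed with mean levels of 2295 for Col5a3, 1934 for Col5a2 and 1418 for Col5a1. Col27a1 (mean 174.5) and Col24a1 (26.46), 2 minor fibrillar chains, were also highest in fibroblasts. Col11a1, a chain of type XI better known from cartilage, had a mean of 10.59, while Col11a2 was near 1 CPM in both fibroblasts (0.942) and leukocytes (1.13).

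The type IV network had another order of classes. Col4a1 reached 4370, 3933, 4090 and 5016 CPM in myocytes, 3347, 2477, 2841 and 2436 in endothelial cells and 278.9, 409.2, 268.7 and 842.8 in fibroblasts. Myocytes were above endothelial cells and these above fibroblasts in each library, and the order was the same for Col4a2, with 2293, 1836, 1944 and 2313 in myocytes, 1957, 1185, 1359 and 1129 in endothelial cells and 153.6, 202.6, 138.3 and 460.3 in fibroblasts. Col4a5, which encodes a minor chain, stood at 36.79, 25, 6.37 and 39.3 in fibroblasts, so that silk at 2 weeks was low, and at 4.04, 14.82, 16.62 and 28.96 in endothelial cells. Its neighbour Col4a6, whose start site lies 1309 bases away on the X chromosome, gave 5, 0, 2 and 0 fibroblast UMIs beside 1310, 554, 80 and 104 of Col4a5. Col4a4 had a fibroblast mean of 2.98 and its neighbour Col4a3 one of 0.422, with start sites 72 bases apart on chromosome 1.

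Among the beaded-filament genes, Col6a3 had the highest mean level in fibroblasts, with 1936, 2871, 3550 and 3950 CPM, followed by Col6a1 with 2059, 2821, 3030 and 3467 and Col6a2 with 1668, 2432, 2545 and 3186. All 3 were lowest in sponge at 2 weeks and highest in silk at 4 weeks. Myocytes held the next level for these genes, 2.17 to 2.93 times below the fibroblasts in mean. The alternative chains differed in class: Col6a6 was highest in fibroblasts (27.33, 40.03, 15.6 and 69.16; 79.4 times the next class in mean) and Col6a5 (11.94, 35.74, 24.75 and 62.73) was highest there in 3 libraries, with myocytes at 35.56 in silk at 2 weeks, where 15 UMIs lay in 1 cell, whereas Col6a4 was higher in myocytes (19.54, 29.94, 47.42 and 53.24) than in fibroblasts (0.70, 2.84, 6.29 and 7.56). The 3 genes lie side by side on the minus strand of chromosome 9 (GRCm38, GENCODE M21), Col6a6 at 105687809 to 105828160, Col6a5 at 105856078 to 105960643 and Col6a4 at 105989454 to 106096783, so neighbouring genes had their highest mean level in different classes. Col7a1, which makes the anchoring fibrils that tie epithelial basement membrane to the tissue below, stood at 6.12, 19.09, 40.03 and 19.65 in fibroblasts. Col28a1 and Col26a1 stayed below 4 CPM in mean in every class, with 322 and 38 UMIs over all cells.

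Of the FACIT genes, Col12a1, Col14a1 and Col16a1 were highest in fibroblasts. Col9a3 and Col20a1 had too few counts for a firm order: fibroblasts were highest in 3 libraries for Col9a3 and in 2 for Col20a1, both below 1.2 CPM there. Col14a1 had the sharpest limit to fibroblasts of all members (687.7, 552.6, 494.3 and 502.3 CPM; 84.3 times the next class in mean). Col12a1 (chromosome 9, 79598991 to 79718831), a fibril-surface collagen abundant in tissue under load, reached 335.9, 214.1, 762.9 and 135.3, with silk at 2 weeks above and silk at 4 weeks below both sponge libraries. Col16a1 stood at 136.2, 192.6, 173.4 and 185.2. Of the short-network type VIII, Col8a1 stood at 167.4, 177.5, 95.5 and 86.92 in fibroblasts, higher in both sponge libraries than in both silk libraries, and Col8a2 at 4.27, 1.81, 2.07 and 4.54. The multiplexin Col15a1 (chromosome 4, 47208161 to 47313167) was shared between classes: its means were 1002 in myocytes, 915.7 in endothelial cells and 491.0 in fibroblasts, and endothelial cells exceeded myocytes in both 2-week libraries only. Col18a1 (chromosome 10, 77052178 to 77166548) stood at 826.6, 877.6, 863.0 and 1307 in myocytes, 576.1, 563.9, 610.5 and 484.2 in endothelial cells and 327.4, 333.0, 341.3 and 530.2 in fibroblasts. Of the transmembrane genes, Col13a1 was highest in endothelial cells in all 4 libraries (5.18, 15.1, 14.42 and 24.44), and Col23a1 stood at 7.81, 10.11, 21.49 and 3.02 in fibroblasts and 1.89, 8.79, 7.09 and 11.77 in endothelial cells. Col17a1, with 143 UMIs over all cells, stood at 0.309, 1.40, 0.159 and 0.756 in fibroblasts.

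Chains that assemble into 1 molecule were compared as ratios of UMIs. The ratio of Col1a2 to Col1a1 in fibroblasts was 0.772 (95% counting interval 0.769 to 0.775), 0.999 (0.995 to 1.0), 0.729 (0.725 to 0.734) and 0.958 (0.948 to 0.969), lower in both 2-week libraries than in both 4-week libraries. F1 gave 0.801, 1.05, 0.775 and 0.974, F2 gave 0.695, 0.938, 0.719 and 0.933, and F4 0.805, 1.05, 0.781 and 1.18, the last from 19 cells. Mo-Mac cells gave 0.774, 1.06, 0.697 and 0.891. Myocytes gave 0.850, 0.835, 0.989 and 0.703. Without the 1 myocyte of most collagen UMIs in each library they gave 0.864, 0.918, 1.0 and 0.686, so that in sponge 1 cell set the direction, while in silk the 4-week library was lower either way. With 1 library at each time and material, time and library cannot be told apart. The ratio of Col4a2 to Col4a1 lay between 0.461 and 0.585 in fibroblasts, myocytes and endothelial cells of all 4 granulomas, although their levels differed many-fold. Col6a2 to Col6a1 was 0.810, 0.862, 0.840 and 0.919 in fibroblasts. Col6a3 to Col6a1 was 0.940, 1.02, 1.17 and 1.14 in fibroblasts and 1.60, 1.57, 1.24 and 1.45 in myocytes. In silk at 2 weeks the myocyte interval (1.09 to 1.42) held the ratios of F2 (1.19), F3 (1.21) and F4 (1.20) but not that of F1 (0.879). Col5a3 to Col5a1 separated F1 from F2 in 3 libraries: it was 1.25, 1.18, 1.29 and 0.580 in F1 and 1.31, 2.21, 1.86 and 2.26 in F2, close only in sponge at 2 weeks.

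Summed over the 37 genes, collagens made up 7.78% of fibroblast UMIs in sponge at 2 weeks (95% binomial interval 7.775 to 7.793, exact Clopper-Pearson), 8.16% in sponge at 4 weeks (8.14 to 8.17), 7.09% in silk at 2 weeks (7.08 to 7.11) and 9.29% in silk at 4 weeks (9.26 to 9.33). These and all later intervals cover counting error only. In both materials the 4-week library was higher. The class held 2127, 1495, 798 and 211 fibroblasts, so the silk 4-week value rests on the fewest cells. Within F1 the share was 8.55%, 9.05%, 8.46% and 10.5%, and within F2 it was 7.79%, 7.98%, 7.37% and 8.45%, again with the 4-week library higher in each pair. F4 had the opposite order, with 6.22% and 5.74% in sponge and 5.71% and 1.25% in silk, the last from 19 cells. For the median F1 cell the order was less clear, with 7.97%, 8.01%, 8.32% and 8.25%, and the quartiles of the 4 libraries overlapped (6.16 to 10.6, 4.98 to 11.3, 6.32 to 9.93 and 4.57 to 13.8). The median F2 cell had 7.89%, 7.69%, 7.61% and 9.0%, lower at 4 weeks in sponge and higher in silk. F3 gave 5.79%, 6.73% and 6.57% in the libraries with 50 cells or more. Myocytes reached 1.61%, 1.85%, 1.63% and 2.22% and endothelial cells 0.96%, 0.589%, 0.653% and 0.509%.

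To compare materials and times in fibroblasts, a gene was called 2-fold apart when log2 of the ratio of levels, with 10 CPM added to both (the damped log2 scale below), reached 1 in size, and the higher library had at least 100 UMIs and 50 CPM. Each collagen call in fibroblasts is given with its plain log2 ratio (0.5 counts added) and 95% counting interval. Genes that make, finish, bind or degrade collagen are given further below with the damped value only. The 4 contrasts share libraries, since each silk library enters a material and a time contrast, and so does each sponge library. The make-up of the class also differed: F1 held 63.9%, 55.5%, 13.2% and 59.7% of F1 to F4 cells and F2 held 14.8%, 25.02%, 57.3% and 27.5%, so silk at 2 weeks was mostly F2 and the other libraries mostly F1.

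At 2 weeks, silk exceeded sponge 2-fold for Col12a1 alone, at 762.9 against 335.9 CPM (log2 ratio 1.18, 1.14 to 1.22), and no collagen was 2-fold lower. Of 18 members past the count limits, this 1 call compares with 1.48% of all genes called higher and 2.31% called lower (0.889% and 3.38% with TMM scaling). With the subclusters weighted equally the damped difference of Col12a1 was 0.66 and the call was lost, as it was with TMM scaling (0.97), which sets the totals from a trimmed mean of gene ratios. Below the limit of 2-fold, Col5a3 was 0.93 and Col6a3 0.87 higher in silk and Col8a1 0.75 lower (-0.75) on the damped log2 scale. The median over the 18 members was 0.11, the same as over all genes tested (0.11).

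At 4 weeks the 2 basement membrane chains were higher in silk: Col4a1 at 842.8 against 409.2 (log2 ratio 1.04, 0.975 to 1.11) and Col4a2 at 460.3 against 202.6 (1.18, 1.09 to 1.28). They were the calls among 20 members past the limits, where 2.21% of all genes were called higher and 1.09% lower (2.18% and 2.78% with cells thinned to 1000 UMIs). Both sat near the limit of 2-fold. On the damped log2 scale Col4a1 lay between 0.68 and 0.999 and lost its call under 6 alternatives, equal weighting of subclusters (0.97) among them, and Col4a2 lost its call with cells thinned to 1000 UMIs (0.97) and with a mean over cells (0.84). Col8a1 missed the limit on the other side (-0.95), so it was lower in silk at both times without a call. The members' median was 0.19 against -0.01 for all genes.

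Between 2 and 4 weeks in sponge, Col15a1 was higher at 4 weeks, at 571.8 against 280.8 (log2 ratio 1.03, 0.99 to 1.06), the 1 call among 18 members, beside 0.928% of all genes higher and 1.11% lower. Its damped value was 1.001, at the limit, and it lay between 0.75 and 0.99 under the 5 alternatives that removed the call. Of the 18 members 14 were above 0 and 4 below, with a median of 0.37 against 0.00 (0.00451) for all genes. Col27a1 was 0.76 higher and Col12a1 0.63 lower (-0.63) at 4 weeks, both short of 2-fold.

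The widest contrast was 4 against 2 weeks in silk, where 6 of 20 members were called. Col4a1 was higher at 4 weeks, at 842.8 against 268.7 (log2 ratio 1.65, 1.57 to 1.73), as was Col4a2 at 460.3 against 138.3 (1.74, 1.63 to 1.84). Col15a1 was higher by the most among well-counted members, at 874.5 against 236.8 (1.89, 1.81 to 1.96). These 3 genes encode basement membrane or basement membrane zone proteins. The beaded-filament chains Col6a6 (69.16 against 15.6, or 183 and 196 UMIs; 2.15, 1.85 to 2.45) and Col6a5 (62.73 against 24.75, or 166 and 311 UMIs; 1.34, 1.06 to 1.62) were also higher, but lost their calls when subclusters were weighted equally. Col12a1 was lower at 4 weeks, at 135.3 against 762.9 (-2.49, -2.65 to -2.34). In this contrast 5.39% of all genes were called higher and 3.73% lower, the largest background of the 4, and with thinned cells 6.34% and 8.42%. The members' median was 0.26 against -0.12 for all genes, with 15 members above 0 and 5 below.

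**Figure D2:**
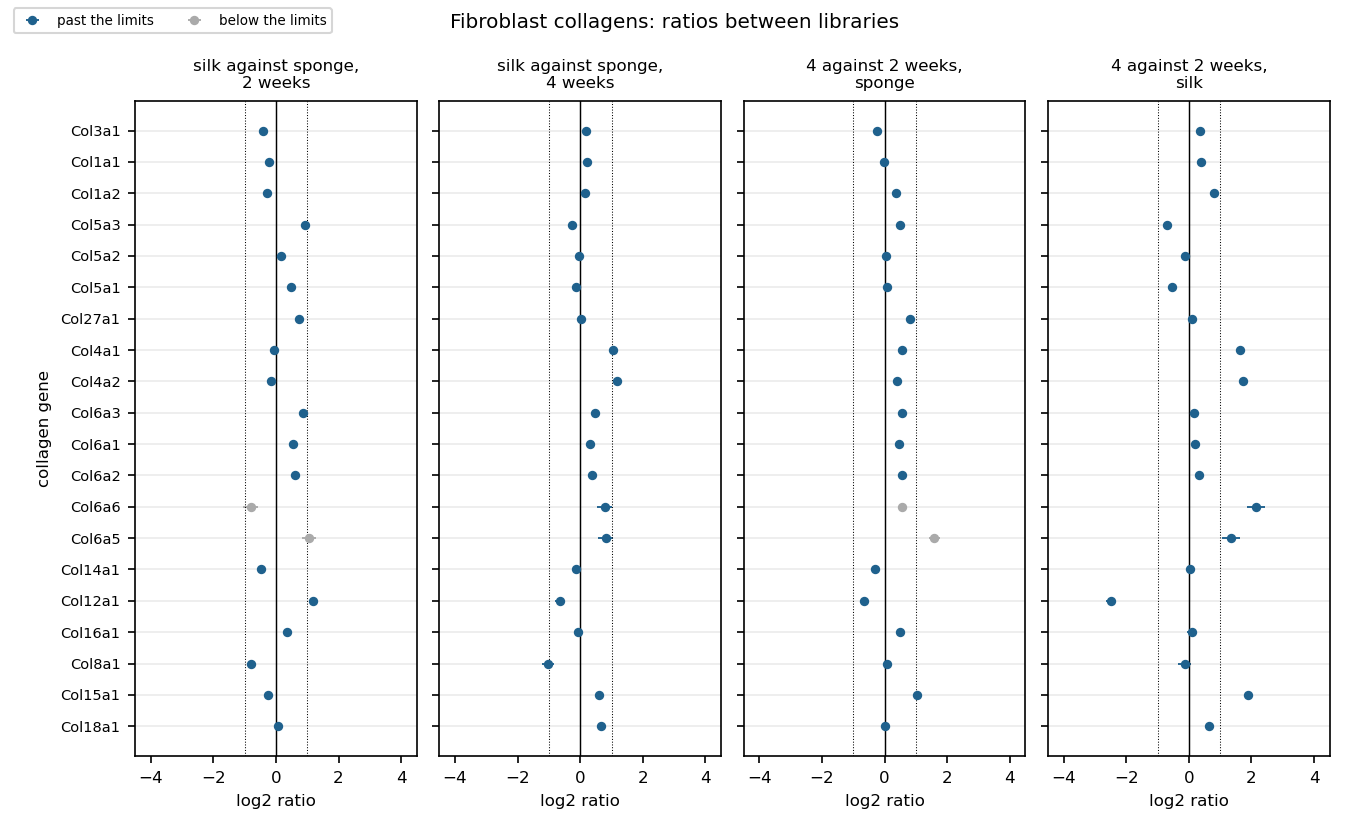
Log2 ratio of the summed fibroblast counts of 2 libraries (x axis) for each collagen gene (y axis) in 4 contrasts, with 95% counting intervals as bars; dotted lines mark 2-fold, blue points are past the count limits and grey points below them. Col12a1 lies right of 2-fold for silk against sponge at 2 weeks and far left for 4 against 2 weeks in silk, where Col4a1, Col4a2 and Col15a1 lie right.

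Within F1, the subcluster with the highest type I and III levels (Col3a1 at 33180, 29740, 29940 and 31990 CPM), a multiplexin differed between the materials. Col18a1 stood at 371.1, 227.8, 118.1 and 99.7, and its silk level was lower at 2 weeks (log2 ratio -1.65, -1.91 to -1.40) and at 4 weeks (-1.19, -1.47 to -0.93). These 2 material contrasts share no library, and Col18a1 was the 1 member called the same way in both. The share of all genes called the same way in both was not computed, so this count is a description only. At 2 weeks, 2.14% of genes tested in F1 were called higher and 2.43% lower, and at 4 weeks 1.99% and 2.49%. Col12a1 was higher in silk at 2 weeks within F1 (526.3 against 194.2; 1.44, 1.31 to 1.56). Col11a1 was higher there too (104.7 against 5.84; 4.17, 3.79 to 4.54), from 117 UMIs in 32 of 105 silk cells against 121 in 18 of 1358 sponge cells, 40 of the latter in 1 cell. Endothelial markers in F1 summed to 136.9 in that silk library against 15.06 or less in the other 3, and their part in the F1 results was not tested. At 4 weeks Col5a3 was lower in silk F1 (633.4 against 1484; -1.23, -1.34 to -1.12).

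Over time in F1, Col6a5 was higher at 4 weeks in sponge (60.3 against 17.33; 1.80, 1.61 to 1.99), where 1.11% of genes were called higher and 0.748% lower. In silk F1, Col5a3 (-1.71, -1.83 to -1.59), Col12a1 (-2.69, -3.02 to -2.38) and Col11a1 (-4.80, -6.87 to -3.57) were lower at 4 weeks, with 6.65% of genes called higher and 6.24% lower. The dissociation stress genes summed to 7325, 11150, 10990 and 15450 CPM in F1, and median UMIs per F1 cell were 14343, 10375, 9236 and 8055. Both moved with time in each material and differed between materials at both times. Their part in the F1 results over time and between materials was not tested. Col4a1 in F1 stood at 309.8, 390.4, 460.9 and 694.6 and passed no limit of 2-fold in any contrast.

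In F2, whose mean level over libraries was the highest of the subclusters for Col5a1, Col5a3 and the 3 main type VI chains (Col6a3 at 2693, 4599, 4057 and 6060), no collagen was called between materials at 2 weeks (background 1.15% higher and 1.58% lower). Col12a1 was at 798.0 in sponge and 830.1 in silk, a log2 ratio of 0.06 (0.002 to 0.11), beside 1.18 over all fibroblasts. At 4 weeks Col4a1 (998.7 against 466.7; 1.10, 1.01 to 1.19) and Col4a2 (572.5 against 248.9; 1.20, 1.08 to 1.32) were higher in silk F2, beside 3.23% of genes higher and 1.78% lower. Over time 2 genes were called in the same direction in both materials, which share no library. Col15a1 was higher at 4 weeks in sponge (876.6 against 372.0; 1.24, 1.17 to 1.31) and in silk (1215 against 248.6; 2.29, 2.19 to 2.39). Col12a1 was lower at 4 weeks in sponge (323.8 against 798.0; -1.30, -1.37 to -1.23) and in silk (183.3 against 830.1; -2.18, -2.37 to -1.997). The backgrounds were 1.75% higher and 2.75% lower in sponge and 5.15% higher and 4.96% lower in silk. These hold for each contrast alone, and the share of all F2 genes called alike in both materials was not computed.

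Silk F2 at 4 weeks against 2 weeks also gave Col4a1 (1.98, 1.88 to 2.08), Col4a2 (2.11, 1.97 to 2.25) and Col18a1 (1.19, 1.09 to 1.29) as higher and Col14a1 as lower (-1.43, -1.64 to -1.23). The silk 4-week F2 group held 58 cells, of which 55 had a Col4a1 UMI and 58 a Col15a1 UMI, and no single cell held more than 7.43% of its 1373 Col4a1 UMIs. Lymphatic endothelial markers summed to 81.47 CPM in it against 7.04 to 12.96 in F2 of the other granulomas, endothelial markers to 27.64 against 8.64 to 18.98, and pericyte markers to 224 against 157.5 to 195.9. Their part in the type IV and Col15a1 values was not tested.

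F3, compared where it had 50 cells, had Col12a1 higher in silk than sponge at 2 weeks (904.8 against 412.8; 1.13, 1.04 to 1.22). Col7a1 was higher there as well (53.83 against 4.47; 3.56, 2.92 to 4.33), from 126 and 21 UMIs, beside 1.66% of genes higher and 1.52% lower. From 2 to 4 weeks in sponge F3, Col4a1 (291.5 against 136.8; 1.09, 0.94 to 1.24) and Col15a1 (544.9 against 175.5; 1.63, 1.51 to 1.76) were higher, beside 1.31% higher and 1.2% lower. Col8a1 was highest in F3, at 241.8, 329.3 and 124.7. In F4 no collagen was called in either contrast (background 1.16% higher and 3.18% lower at 2 weeks between materials, 1.42% and 1.95% over time in sponge). Col15a1 was thus called higher at 4 weeks in sponge in F2 and F3, while in F1 it stood at 288.1 and 384.0.

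**Figure D3:**
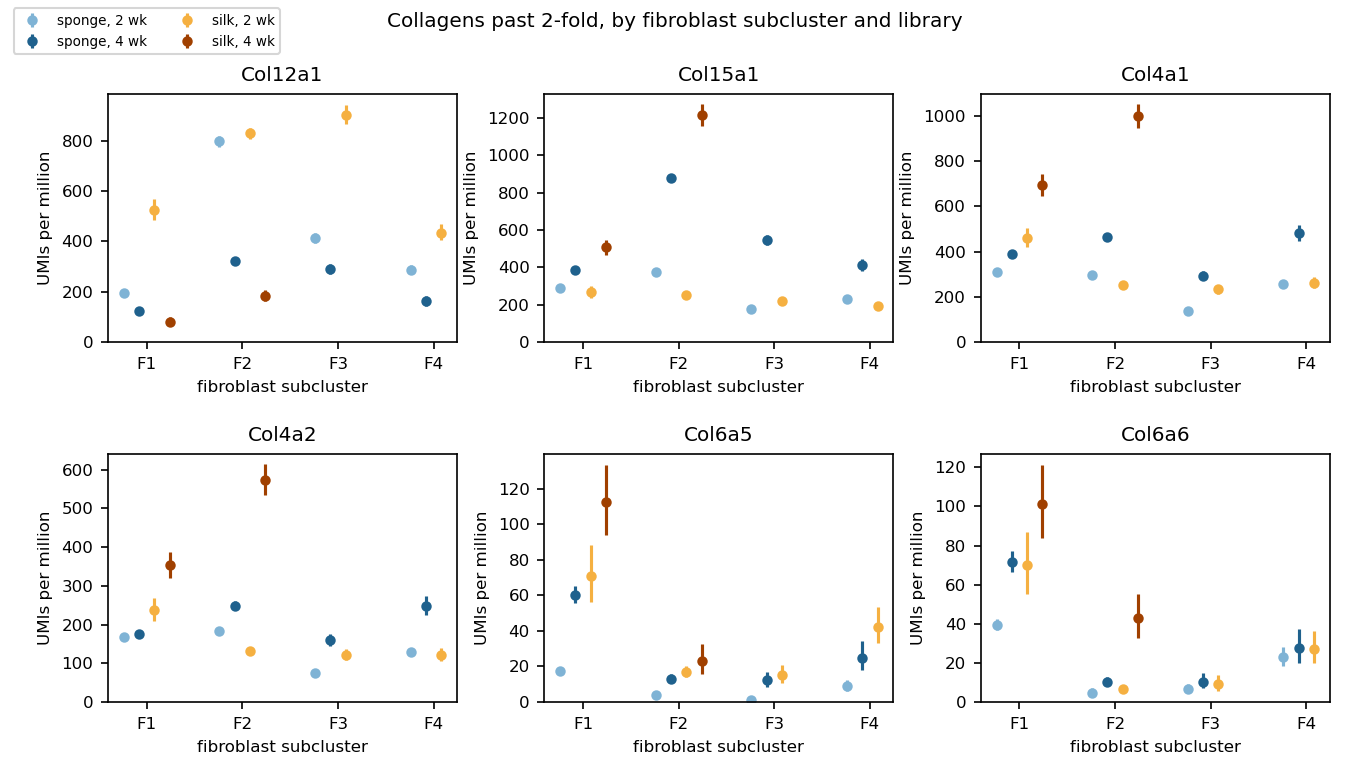
CPM (y axis) of Col12a1, Col15a1, Col4a1, Col4a2, Col6a5 and Col6a6 in fibroblast subclusters F1 to F4 for the 4 granuloma libraries, with 95% exact Poisson intervals as bars; groups under 50 cells are not drawn. Col12a1 is higher in F2 than in F1 in every library, and Col15a1 in F2 is higher at 4 weeks than at 2 weeks in both materials.

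Genes that make, finish, bind or degrade collagen were described from 5 lists. Of 22 genes of folding and modification in the cell, 19 passed the limits in fibroblasts and only Plod2, a lysyl hydroxylase, was called, in silk at 4 against 2 weeks (120.2 against 307.7 CPM; damped log2 -1.29). Of 13 genes of propeptide removal and cross-linking 10 passed the limits. In silk over time, where 5.39% of all genes were called higher and 3.73% lower, the cross-linking enzymes Loxl2 (453.9 against 1194; -1.38) and Loxl3 (49.51 against 126.8; -1.20) and the propeptidase Adamts14 (46.48 against 120.8; -1.21) were lower at 4 weeks, and Pcolce2, which aids propeptide removal, was higher (158.0 against 9.55; 3.10). The median of that list was -0.68 beside -0.12 for all genes, while the collagens' own median was 0.26. At 2 weeks Adamts14 was higher in silk than sponge (120.8 against 53.98; 1.03) and Pcolce2 lower (9.55 against 54.79; -1.73), and neither was called at 4 weeks.

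Of 17 fibril-bound matrix genes 14 passed the limits. Over time in silk, beside 5.39% of all genes higher and 3.73% lower, 4 were higher at 4 weeks: the small proteoglycans Dcn (9831 against 4390; 1.16) and Ogn (347.3 against 95.97; 1.75), Tnxb (524.6 against 167.2; 1.59) and Fbln1 (350.7 against 134.3; 1.32). Tnc (250.2 against 774.7; -1.59) and Postn (1057 against 2263; -1.09), matricellular proteins of repair, were lower with Col12a1. Between materials, Tnxb was lower in silk at 2 weeks (167.2 against 431.0; -1.32), and at 4 weeks Ogn was higher (347.3 against 128.2; 1.37) and Tnc lower (250.2 against 549.8; -1.11). Of 14 breakdown genes 11 passed. At 4 against 2 weeks in silk, Mmp3 (1686 against 205.0; 2.98), Timp2 (1846 against 600.2; 1.61), the collagenolytic cathepsin Ctsk (833.7 against 349.5; 1.23) and the gelatinase Mmp2 (1460 against 682.2; 1.09) were higher. In that contrast over time Timp3 (95.99 against 578.9; -2.47) and Mmp19 (151.5 against 356.4; -1.18) were lower. Between materials Mmp3 was lower in silk at 2 weeks (205.0 against 527.7; -1.32) and higher at 4 weeks (1686 against 763.3; 1.13), and Timp3 had the opposite order (578.9 against 161.0, 1.78, and 95.99 against 285.5, -1.48). The collagenase Mmp13 was higher in silk at 2 weeks (152.7 against 28.48; 2.08) and higher at 4 weeks in sponge (107.0 against 28.48; 1.60). Of 10 collagen receptors, 4 to 6 passed the limits. Itga1 was higher in silk at 2 weeks (64.86 against 15.98; 1.53) and Itga10 at 4 weeks (69.54 against 26.31; 1.13), and Itga10 also at 4 against 2 weeks in silk (69.54 against 9.15; 2.05). In that contrast the list medians were -0.30 for folding, 0.15 for fibril-bound genes, 0.57 for breakdown and 0.25 for receptors. In the other 3 contrasts they lay between -0.32 and 0.21, apart from 0.54 for breakdown in sponge over time.

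In myocytes, the highest collagens were the type IV pair given above, followed in mean by Col3a1 (2044, 2554, 1840 and 1710), Col1a1 (1134, 1798, 874.8 and 2272) and Col6a3 (1163, 1478, 1202 and 1816). The silk libraries held 34 and 21 myocytes, so that only sponge, with 273 and 94, entered a contrast. There 0 of 14 members past the limits were 2-fold apart, beside 1.13% of genes called higher and 2.97% lower. Col15a1 was at 661.9 and 869.4 (log2 ratio 0.39, 0.28 to 0.51) and Col6a3 at 1163 and 1478 (0.35, 0.26 to 0.43). Fibroblast markers summed to 736.4, 883.8, 846.4 and 1296 CPM in myocytes and endothelial markers to 2763, 2901, 3011 and 2987. Their part in the Myocyte collagen levels was not tested.

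In endothelial cells, the basement membrane members differed little between libraries. None of Col4a1, Col4a2, Col15a1 and Col18a1 was 2-fold apart in any of the 4 contrasts, and Col15a1 stood at 909.8, 823.8, 1131 and 798.2. The fibrillar genes and the type VI chains Col6a1, Col6a2 and Col6a3 differed more between libraries. Col3a1 stood at 983.4, 204.8, 128.1 and 25.34 CPM, Col1a1 at 671.2, 173.2, 142.0 and 17.2 and Col1a2 at 501.6, 168.8, 66.97 and 14.48, highest in sponge at 2 weeks and lowest in silk at 4 weeks. Of the members past the limits, 9 of 13 were called lower in silk at 2 weeks (background 1.97% higher and 2.03% lower) and 3 of 7 at 4 weeks (0.443% and 2.01%). Over time, 8 of 13 were called lower at 4 weeks in sponge (3.49% and 1.94%) and 3 of 7 in silk (1.08% and 3.14%). Leaving out the 1 endothelial cell with the most collagen UMIs in each library, a choice made after seeing the data, the calls numbered 8, 3, 7 and 2. Col6a1, Col6a2 and Col6a3 were among the 8 between materials at 2 weeks and the 7 over time in sponge. In silk at 2 weeks 1 cell held 53.5% of the Col1a1 UMIs, and without it Col1a1 was at 66.62. Fibroblast markers in the class had the same order of libraries, with 350.3, 289.6, 73.32 and 18.1, as did pericyte markers in part (198.4, 64.79, 36.91 and 52.49). The sizes differed: from 2 to 4 weeks in sponge the fibroblast markers went from 350.3 to 289.6, beside 983.4 to 204.8 for Col3a1. All 8 fibroblast markers were detected in the first 3 libraries, and Fbln1 alone was at 0 in silk at 4 weeks. Their part in the fibrillar and type VI values was not tested.

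Lymphatic endothelial markers summed to 442.1, 4099, 3408 and 7924 CPM in the class. Endothelial cells were therefore also divided, after seeing the data, by whether they held UMIs of at least 2 of 5 lymphatic markers, which gave 20, 157, 141 and 80 marked cells and 790, 333, 438 and 141 others. The type IV pair and Col15a1 were lower in the marked cells. Col4a1 was at 3137, 1757, 1518 and 881.0 in marked cells and 3361, 2916, 3261 and 3212 in the others, and Col15a1 at 787.8, 301.6, 166.5 and 201.2 against 918.0, 1142, 1437 and 1096. The minor chain Col4a5 had the opposite order, with 34.08, 36.25, 61.92 and 84.29 in marked cells against 2.02, 1.77, 2.25 and 1.36. The transmembrane Col23a1 followed it, with 18.04, 21.75, 26.39 and 35.35 against 0.809, 0.884, 0.966 and 0. All 10 endothelial UMIs of Col4a6 lay in marked cells, 1, 5, 2 and 2 by library. Col18a1 was higher in marked cells in 3 libraries (886.1, 649.7 and 710.5 against 555.3, 511.6 and 578.8) and lower in silk at 4 weeks (356.2 against 548.0). The other cells held more Col8a1 (35.58, 29.6, 51.51 and 73.25 against 20.05, 13.78, 5.08 and 8.16).

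**Figure D4:**
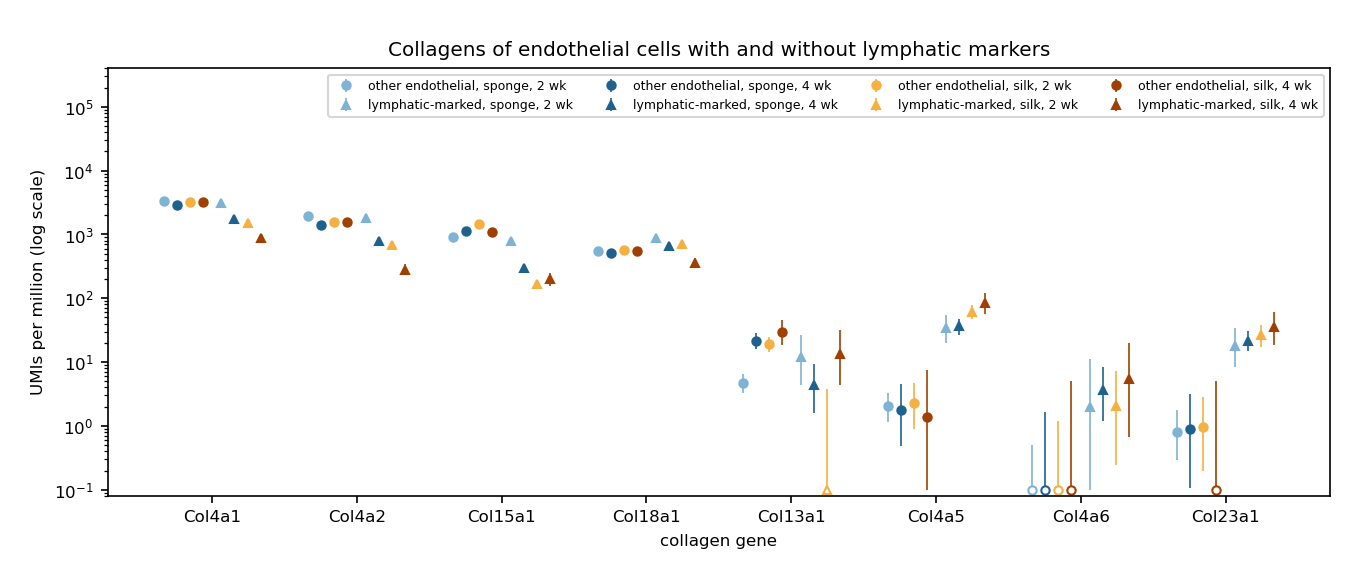
CPM on a log axis (y) of collagen genes in endothelial cells with UMIs of at least 2 of 5 lymphatic markers (triangles) and in the other endothelial cells (circles), by granuloma library; open symbols at the bottom stand for 0 UMIs. Col4a5 and Col23a1 are higher in the marked cells in all 4 libraries, and Col4a1, Col4a2 and Col15a1 in the others.

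In leukocytes, collagen counts were low and were read beside the fibroblasts of the same library, since RNA free in a droplet suspension can add counts of abundant genes to cells. The part of free RNA in the leukocyte counts was not tested. Types I and III together (Col1a1, Col1a2 and Col3a1) stood in leukocytes at 0.638% of their fibroblast level in sponge at 2 weeks (0.629 to 0.647), 0.794% in sponge at 4 weeks (0.780 to 0.809), 0.202% in silk at 2 weeks (0.196 to 0.208) and 0.0828% in silk at 4 weeks (0.0750 to 0.0911). The share was higher in sponge than in silk at both times. Fibroblasts held 35606219 of 96066597 UMIs and 22157829 of 50734356 in the sponge libraries. In the silk libraries they held 12565782 of 63570615 and 2646075 of 11207419. The part of this difference in the leukocyte share was not tested. Mo-Mac cells gave 0.602%, 0.792%, 0.194% and 0.0769% for types I and III together, NK and T cells 0.754%, 0.650%, 0.251% and 0.0722%, and B cells 0.793%, 0.735%, 0.308% and 0.147%. Neutrophils were higher, at 1.18%, 1.23%, 0.421% and 0.543%, the last from 69 cells of which 1 held 73.8% of the collagen UMIs. Their median UMIs per cell were 1892, 1142, 1319 and 1083, against 4729, 3078, 4337 and 4217 in Mo-Mac cells. The part of this depth in the neutrophil values was not tested. In the control macrophages all collagens together made up 0.000402% of Mo-Mac UMIs, or 299 UMIs in 7783 cells, against 0.0500%, 0.0702%, 0.0159% and 0.00878% in the granulomas.

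A gene whose share of the fibroblast level lay above that of types I and III together, with an interval wholly above it, had counts in leukocytes beyond that common ratio. In all 4 granulomas, and whether set against fibroblasts or against all stromal cells, 6 of the 37 members did so, beside 78.3% of the 17615 genes with the same minimum of 20 UMIs: Col5a3, Col7a1, Col11a2, Col20a1, Col9a3 and Col26a1. Col5a3 was the only one above 100 leukocyte UMIs in any library, as it was in 3, at 0.845%, 1.36%, 0.263% and 0.231% of the fibroblast level, or 14.11, 32.07, 8.404 and 4.51 CPM. The control leukocytes had no Col5a3 UMI, which allows up to 0.0377 CPM by 3 counts. Col11a2 stood at 115%, 86.9%, 155% and 128% of the fibroblast level, from 36, 21, 61 and 10 leukocyte UMIs, and was present in control leukocytes at 0.640 CPM beside 0.774, 0.941, 1.35 and 1.46 in the granulomas. Col7a1 stood at 6.67%, 4.93%, 1.61% and 3.70% from 19, 21, 29 and 5 UMIs. Col20a1 gave 16, 9, 26 and 1 leukocyte UMIs, Col9a3 17, 4, 9 and 1, and Col26a1 3, 1, 2 and 1, so that silk at 4 weeks rests on 1 UMI for each. For these 3 the fibroblast counts were 22 or fewer in each library. Col4a1, at 2.48%, 2.18%, 1.82% and 0.311% of the fibroblast level, lay above types I and III in all 4 libraries against fibroblasts but in only 1 against all stromal cells, where myocytes and endothelial cells add type IV.

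Among myeloid subclusters with over 300 cells, pooled over the granulomas, Col5a3 ranged from 10.56 to 25.23 CPM. C6 was highest for it and also for Col3a1 (201.9), while C7 had Col5a3 at 14.26 beside Col3a1 at 76.38, so no order is read from Col5a3. Col27a1 was also counted in C9: this subcluster, left out of Mo-Mac because its leading genes include mast cell markers, held it at 29.46 CPM in control cells and at 9.99, 49.07, 9.28 and 142.3 CPM in granuloma cells, from 23, 20, 66, 9 and 48 UMIs. At most 16 of these UMIs came from 1 cell in any library. In C8 Col27a1 was at 7.73, 2.78, 5.24 and 37.44 in the granulomas. The intervals of C9 and C8 overlapped in both 2-week libraries (6.1 to 15.42 against 4.11 to 13.21 in sponge, 4.24 to 17.61 against 1.43 to 13.42 in silk) and did not in the 4-week libraries. Single cells carried some other low counts: 49 of the Col17a1 UMIs of C8 in silk at 2 weeks, 24 Col17a1 UMIs in F4 of sponge at 4 weeks and 20 Col11a1 UMIs of endothelial cells in sponge at 2 weeks each lay in 1 cell.

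**Figure D5:**
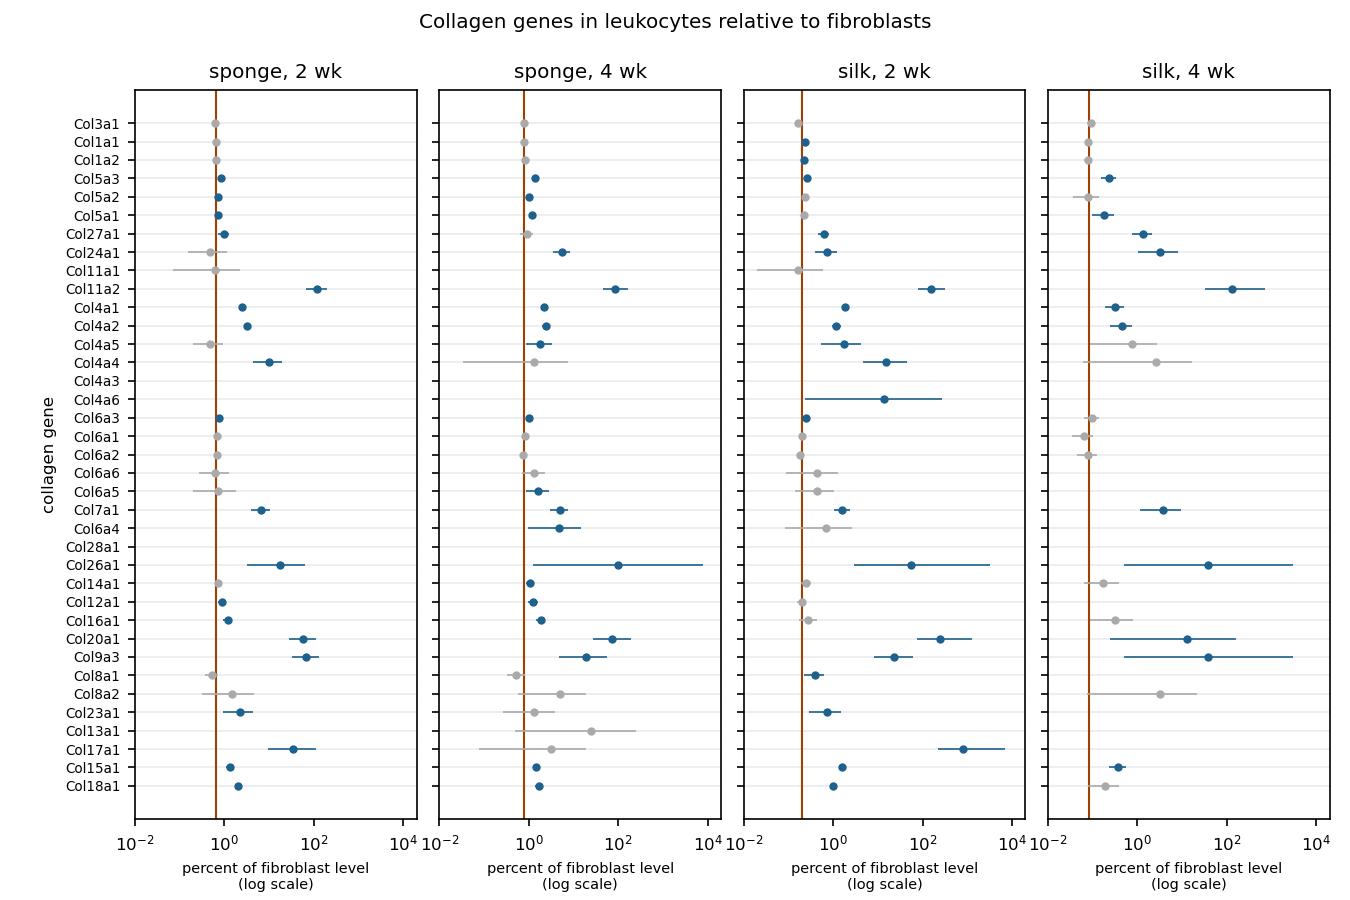
Level in leukocytes as a percent of the fibroblast level in the same library (x axis, log scale) for each collagen gene (y axis), by granuloma library, with 95% counting intervals as bars; the brown line is types I and III together, and blue marks intervals above it. Genes with no leukocyte UMI are not drawn; Col5a3, Col7a1 and Col11a2 lie right of the line in all 4 libraries.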

How the data were processed

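Mouse single-cell libraries from 1 control and 4 granuloma samples were used, 1 library per group. The authors deposited raw UMI counts per gene and cell and a table of cells with library, classes, subclusters and the percent of mitochondrial UMIs. Per the submitters' processing notes, Cell Ranger 3.0.0, Seurat 3.0 and build mm10 were used, with no roles given, and cell filters were not given in these sources. In all 41191 cells the counts summed to the deposited total.

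Counts were summed per library and class with Python 3.11.15, numpy 2.4.6 and pandas 2.3.3. Fibroblasts were F1 to F4, without the mesothelial-marked subcluster KC and the cells named low quality. Mo-Mac left out C9 and neutrophils left out BP. A class entered a contrast with 50 cells in both libraries. Intervals are exact (Poisson, Clopper-Pearson or conditional binomial; scipy 1.17.1), at 95%. UMIs are counted molecules, but of 1 library, so intervals cover counting error only and no p-value was computed. On simulated counts of 21617 genes per comparison, 100.0% of the planted 4-fold differences were recovered. They were planted in well-counted genes only, with counting error and no spread between libraries. The simulation therefore does not check calls near 2-fold or differences between single libraries.

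The members, the lists of partner and marker genes, the limits and the comparisons were chosen with earlier results of these data known. Every member is named, with full values for the 3 of highest level in each structural group and for those called 2-fold apart in fibroblasts. Other list genes are named, up to 4 per direction, where called. Alternatives were TMM scaling (edgeR 4.0.16), all deposited fibroblasts, thinning to 1000 UMIs per cell, a mean over cells, no cells in the top 5 percent of doublet scores (Scrublet in scanpy 1.11.5; doublets otherwise stayed in), an offset of 50, no count limits, a member minimum of 100 UMIs and equal weights for subclusters. Promoter windows are from RefSeq (GRCm38.p6), and gene positions from GENCODE M21.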

Additional observations from a re-analysis of the deposited data

Results flagged for a closer look

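Mmp3 and Timp3, a secreted protease and an inhibitor of such proteases, differed between silk and sponge fibroblasts in opposite directions at the 2 times. Mmp3 was lower in silk at 2 weeks (-1.32 on the damped log2 scale) and higher at 4 weeks (1.13). Timp3 was higher in silk at 2 weeks (1.78) and lower at 4 weeks (-1.48). Each time and material is 1 library, so the difference between the times was not tested.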

How the results depend on the processing

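No paired analysis was possible because each group has 1 library, and for the same reason no replicate could be left out. No collagen called 2-fold apart in fibroblasts changed direction under the alternatives, and direction was checked for these calls only. Counts of collagens called in fibroblasts moved as follows. Silk above sponge at 2 weeks, 1 became 0 with TMM and with equal subcluster weights and 3 with no count limit (Col12a1, Col7a1, Col11a1), which also gave 1 below (Col4a5) in place of 0. Silk above sponge at 4 weeks, 2 became 1 with all deposited fibroblasts, TMM, an offset of 50 or equal weights, and 0 with a mean over cells or thinned cells. Sponge 4 above 2 weeks, 1 became 0 with all deposited fibroblasts, TMM, a mean over cells, thinned cells or an offset of 50, and 2 with no count limit (Col15a1, Col6a5). Silk 4 above 2 weeks, 5 became 3 with an offset of 50 or equal weights (Col4a1, Col4a2, Col15a1). Below, 1 became 2 with a mean over cells or thinned cells (Col5a3, Col12a1) and 3 with no count limit (Col12a1, Col23a1, Col11a1). Of the single-gene values, 70 kept their call and 20 lost it. The collagen share of fibroblast UMIs became 7.74%, 8.14%, 6.94% and 9.16% with all deposited fibroblasts, 7.8%, 7.89%, 7.37% and 8.35% as a mean over cells, 7.8%, 7.94%, 7.38% and 8.69% thinned, and 7.97%, 8.33% and 7.29% in the first 3 granulomas without the top doublet scores. Leukocytes became the highest class for 2 members with thinned cells. Types I and III together in leukocytes became 0.857%, 1.06%, 0.27% and 0.129% of the fibroblast level thinned, 0.832%, 0.954%, 0.274% and 0.122% against all stromal cells, and 0.623% in sponge at 2 weeks without top doublet scores. The median of all genes was 0.11 at 2 weeks between materials (-0.07 with TMM) and -0.12 over time in silk (-0.04 with TMM). With TMM 0.889% of genes were higher and 3.38% lower in silk at 2 weeks, and thinned cells gave 2.18% and 2.78% at 4 weeks and 6.34% and 8.42% over time in silk. The 211 silk 4-week fibroblasts and few myocytes limit what could be compared.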

Other observations

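The cells of the deposited fibroblast subcluster KC, 32 in silk at 2 weeks and 3 in silk at 4 weeks among the granulomas, carried mesothelial markers at 5766 and 5664 CPM, with all 7 detected. In silk at 2 weeks their collagens were 0.965% of UMIs and had another make-up than in F1 to F4. Col3a1 was at 4039 CPM, Col1a2 at 1575 and Col1a1 at 861.6, so that Col1a2 exceeded Col1a1 (ratio 1.83) where fibroblasts of that library gave 0.729. Col6a1 was at 830.2 but Col6a3 at 40.39, a ratio of 0.0486 against 1.17 in the fibroblasts of that library and 0.879 in their subcluster F1. The alternative chain Col6a5 was at 484.6, from 108 UMIs, against 24.75 in the fibroblasts. The minor type IV chains Col4a5 (85.26), Col4a4 (44.87), Col4a6 (35.9) and Col4a3 (26.92) were all detected, the last 3 from 10, 8 and 6 UMIs. These few cells of 1 library are given as a description.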
